A study of Mus musculus with 16 samples.

Results

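Aminoacyl-tRNA synthetases are the enzymes that join each amino acid to its tRNA, and 36 genes for them were followed here out of 24421 genes listed in the tables. The members were chosen by gene symbol, 20 for the enzymes of the cytosol and 16 for the enzymes of mitochondria, and all 36 were found and tested in every comparison. RNA from mouse somatosensory cortex was sequenced in 4 groups of 3 libraries. CTL-WT mice were wild-type C57BL/6 left undisturbed, and SD-WT mice were wild-type kept awake by gentle handling (sleep disruption, SD) from ZT20 to ZT4, where ZT0 is light onset in a cycle of 12 h light and 12 h dark. CTL-AcPbKO and SD-AcPbKO mice were AcPb-/- animals, which lack the brain form of the IL1 receptor accessory protein, under the same conditions. All animals were homozygous offspring of colonies bred for 5 to 7 generations, described as male, 2 to 3 months old and collected at ZT4. The labels give as many mice as samples in each group, so each library was taken as a separate mouse.

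Each synthetase recognizes 1 amino acid and its tRNAs and spends ATP to make the charged tRNA that the ribosome uses. Cytosolic and mitochondrial protein synthesis have separate sets, most of them from separate nuclear genes, while Gars and Kars each make both forms and Eprs carries the glutamate and proline enzymes in a single protein. Several cytosolic synthetases sit in the multisynthetase complex with scaffold proteins. When charged tRNA runs short, the kinase GCN2 phosphorylates eIF2 and the transcription factor ATF4 is translated, and many cytosolic synthetase genes are known targets of ATF4.

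The values are normalized counts, reads per gene divided by a size factor for each library. Reads on genes ranged from 32870075 to 41615582 in CTL-WT, 58770286 to 71775967 in SD-WT, 26504840 to 35683409 in CTL-AcPbKO and 63413467 to 71857505 in SD-AcPbKO, so depth and SD cannot be told apart. Although the mice were described as male, 4 control libraries (CTL-WT replicates 02 and 03, CTL-AcPbKO replicates 04 and 05) held 25352 to 39358 reads of Xist, the RNA of the inactive X chromosome, and at most 2 reads of Y-linked genes. The other 8 libraries, all 6 SD libraries among them, held 5 to 13 Xist reads and at least 5105 Y-linked reads. Results for SD are therefore given also without those 4 libraries. Il1rap, which contains the AcPb exon, was at 1476 to 1520 normalized counts in CTL-WT and 1515 to 1647 in CTL-AcPbKO, a log2 difference of 0.08 (SE 0.06, limma adjusted p = 0.718). This count sums all forms of the gene, so it did not check the deletion. All 6 markers of excitatory neurons and all 5 of astrocytes were above 0 in every library, as the labelled tissue requires.

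Summed markers of several cell types moved with SD beside the members, though single markers of a type differed in direction. The sum of the 6 excitatory neuron markers was lower after SD in both genotypes (87340 to 95488 in CTL-WT, 75228 to 87284 in SD-WT, 97561 to 102108 in CTL-AcPbKO, 85628 to 90252 in SD-AcPbKO), and the sum of the 3 markers of oligodendrocyte precursors was lower as well (6502 to 7614, 5941 to 6476, 6718 to 7893 and 6046 to 6356 in the same order). Single excitatory neuron markers went both ways, with 1 called higher and 2 lower in wild-type mice and 1 called each way in AcPb-/- mice, and 1 precursor marker was called lower in each genotype. The sum of the 4 endothelium markers was higher (9222 to 9735, 10236 to 12020, 9105 to 10097 and 10188 to 11511), with 3 called higher and 1 lower in wild-type mice and 2 higher and 1 lower in AcPb-/- mice, and all of these markers were above 0 in every library. All 5 microglia markers had lower means after SD in AcPb-/- mice, 2 of them called, with sums of 10063 to 11227 in CTL-AcPbKO and 7383 to 9185 in SD-AcPbKO, and 1 was called lower in wild-type mice (sums of 10132 to 11632 and 9634 to 10478). In SD-AcPbKO replicate 04 the 3 choroid plexus markers summed to 17380, against 205 to 483 in the other 11 libraries. Of the 5 oligodendrocyte markers 3 fell in wild-type mice and 0 passed in AcPb-/- mice, and of the 6 striatal neuron markers 2 fell in wild-type mice and 0 passed in AcPb-/- mice. The part of these shifts in the results was not tested. Fewer cells of a type and less RNA per cell cannot be told apart in bulk tissue.

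Promoter windows were available for 27 of the 36 members (13 cytosolic and 14 mitochondrial), 250 bases before to 50 bases after the RefSeq start on GRCm38.p6. They were searched on both strands for TGATGNAA, the core of the C/EBP-ATF response element through which ATF4 acts. It was found in 5 cytosolic members (Yars, Gars, Aars, Iars and Tars) and in 0 mitochondrial members, against 3.97% of all 32851 windows. These stretches are shown because members with the same letters differed in direction with SD. Of these, the fall of Yars seldom passed with 1 library left out. Each line is read in the direction of the motif, which is in capitals with 10 bases on either side.

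Tars, motif at -15 to -8 from the start, chr15:11399656-11399683: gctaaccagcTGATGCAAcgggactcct
Iars, motif at 8 to 15, chr13:49682127-49682154: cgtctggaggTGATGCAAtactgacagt
Yars, motif at 4 to 11, chr4:129189896-129189923: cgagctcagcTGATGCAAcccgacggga
Gars, motif at -30 to -23, chr6:55037961-55037988: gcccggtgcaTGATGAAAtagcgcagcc
Aars, motif at 10 to 17, chr8:111033841-111033868: cagagcgctcTGATGAAAagtgacccgc

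Position 1 is the start base and -1 the base before it. Tars, Iars and Yars shared the same 8 letters. Not every match is printed. A match of letters is a description and not a bound site. The members with no window here are named with their values only.

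Per length of annotated exon, cytosolic members stood above mitochondrial ones in undisturbed wild-type cortex. The median level was 660 normalized counts per kb over the 20 cytosolic members and 156 over the 16 mitochondrial members. Nars (asparagine) was highest at 2671 ± 97 per kb (standard deviation, n = 3), followed by Gars (glycine) at 2248 ± 134, Sars (serine) at 1683 ± 62 and Wars (tryptophan) at 1469 ± 88.8. Wars and Hars (histidine, 1446 ± 29.7 per kb) overlapped across libraries, whereas Nars, Gars and Sars did not overlap their neighbours in the order. The lowest cytosolic levels were those of Eprs (271 ± 12 per kb), Tars (272 ± 8.53 per kb) and Farsa, the alpha chain of the phenylalanine enzyme (291 ± 14.1 per kb). Aars2, the mitochondrial alanine enzyme, led its set at 364 ± 14.7 per kb, and 16 cytosolic members lay above it. The lowest of all was Mars2, the mitochondrial methionine enzyme, at 56 ± 1.96 per kb. In that order, 20 of the 35 pairs of neighbours overlapped between libraries, and the order in SD-WT followed it closely (Spearman rho over the 36 members 0.987, a description across genes that share libraries and lengths). The lengths sum every annotated exon and so understate genes with rarely used exons. Eprs (18102 bases) and Mars2 (11294 bases) had the longest, so their low places depend in part on these lengths. Of the exon bases of Aars, 15.1% lie also in Exosc6 on the same strand.

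**Figure D1:**
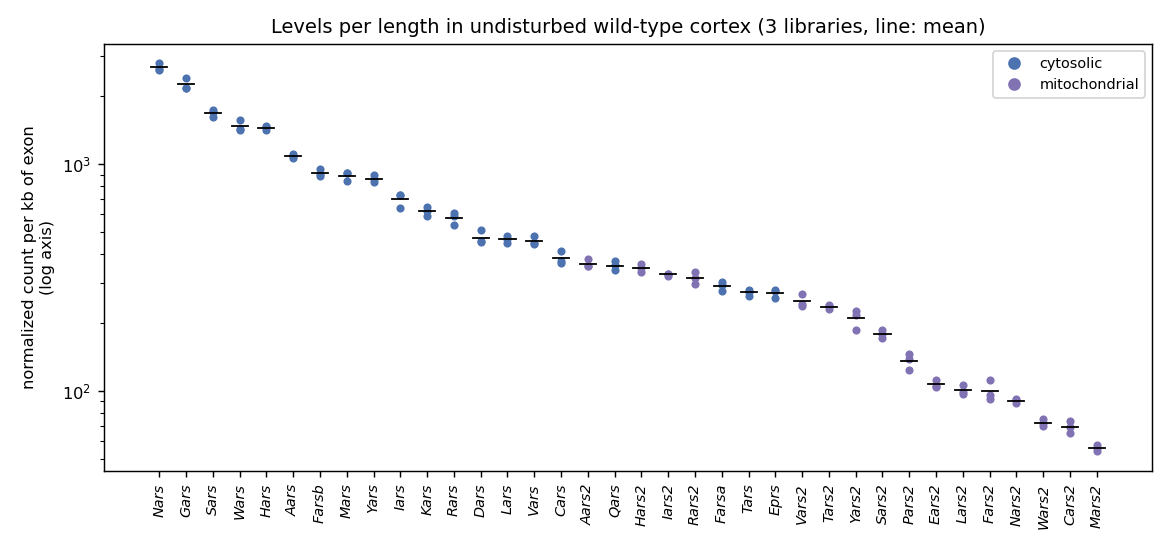
Level per kb of annotated exon (log axis) of the 36 synthetases in the 3 CTL-WT libraries, ordered by their mean (line), with cytosolic members in blue and mitochondrial members in purple. Nars is highest at 2671 per kb and Mars2 lowest at 56, and the cytosolic set lies mostly to the left.

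The SD comparison asks what sleep loss did to expression in the cortex. In wild-type mice 12 of the 36 synthetases passed the threshold (limma, Benjamini-Hochberg adjusted p under 0.05 over all 20417 genes), and the cytosolic set split: Tars, Iars, Rars and Sars rose, and Vars, Lars, Mars and Yars fell. In the mitochondrial set 0 rose and 4 fell, Pars2, Vars2, Iars2 and Mars2. Of the members 4, or 11.1%, rose and 8, or 22.2%, fell, against 13.2% and 12.2% of all genes tested. Among the 10838 genes with a mean at least as high as that of the lowest member, 20.7% rose and 16.6% fell. The balance of members that rose and fell was not stable: with a term for the libraries with Xist 6 rose and 5 fell, without CTL-WT replicate 03 the counts were 4 and 4, and without SD-WT replicate 01 they were 3 and 3. Every SD library lay above every control for 7 members and below every control for 10, where 20.5% and 19.7% of all genes did so. For genes with a mean at least as high as that of the lowest member this share was not counted. The median log2 fold change was 0.03 over the cytosolic and -0.06 over the mitochondrial members, beside -0.00389 over all genes tested.

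Among the cytosolic members that rose, Tars, the threonine enzyme (chr15:11382301-11399665), was at 1660, 1596 and 1703 normalized counts in CTL-WT replicates 01, 02 and 03 and at 2052, 2261 and 2080 in SD-WT replicates 01, 02 and 04. Every SD library lay above every control, a log2 fold change of 0.37 (SE 0.06, limma adjusted p = 0.00329) or 28.9%. Iars charges isoleucine within the multisynthetase complex and stood at 3949, 3483 and 3974 for controls against 4513, 4729 and 4594 for SD libraries. The groups did not overlap, although control replicate 02 was well below the other controls (log2 fold change 0.28, SE 0.07, limma adjusted p = 0.0118). Rars, the arginine enzyme of the complex, was at 1954, 1783 and 2023 in the controls against 2209, 2325 and 2356 after SD. It rose by 0.26 on the log2 scale (SE 0.07, limma adjusted p = 0.0181), again without overlap. Sars, the serine enzyme, rose by 0.22 (limma adjusted p = 0.0258). Nars did not pass with a log2 difference of 0.18 (limma adjusted p = 0.0514), though its SD libraries (12990 to 13947) all lay above the controls (11705 to 12502).

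The largest change of any member was the fall of Vars, the valine enzyme (chr17:35000987-35016322). Controls were at 2586, 2794 and 2562, SD libraries at 1725, 1775 and 1799. These groups lay far apart, with a log2 fold change of -0.58 (SE 0.06, limma adjusted p = 0.000318), and the level fell by 33.2%. Lars, the leucine enzyme of the complex and a leucine sensor for mTORC1, was at 2590, 2468 and 2677 in the controls against 1916, 1977 and 2268 after SD. SD replicate 04 was nearest to the controls but still below them, and Lars fell by 0.33 on the log2 scale (SE 0.07, limma adjusted p = 0.00994). Mars, the methionine enzyme of the complex, needed also for the initiator tRNA, was at 3223, 2973 and 3211 against 2675, 2580 and 2732. It fell by 0.24 on that scale (SE 0.06, limma adjusted p = 0.0171), with all SD libraries below the controls, and 1.99% of its exon bases overlap Ddit3 on the other strand. Yars, the tyrosine enzyme, fell by 0.22 (limma adjusted p = 0.0423). Of the 4 cytosolic members that fell, Vars and Yars are free and Lars and Mars belong to the complex, and of those that rose Iars and Rars belong to it.

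**Figure D2:**
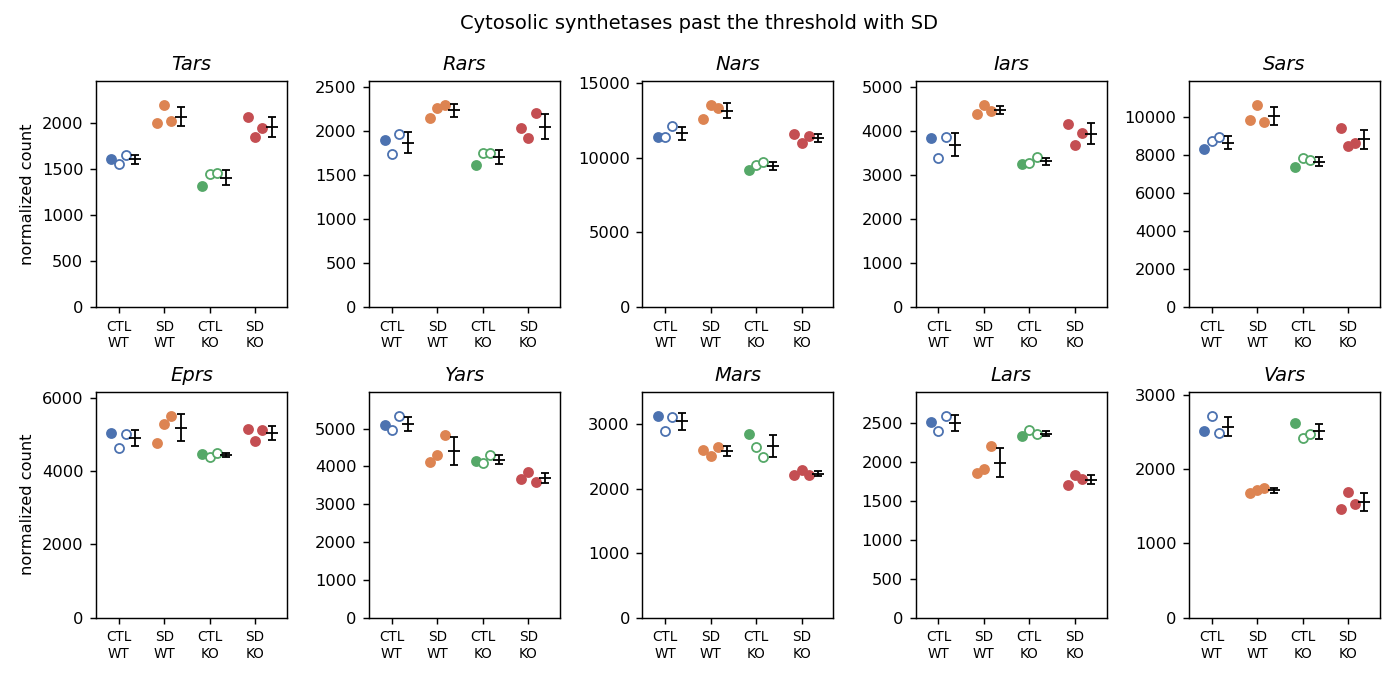
Normalized counts (12 libraries normalized together, axis from 0) of the 10 cytosolic synthetases past the threshold with SD in at least 1 genotype, by group, with open points for the 4 libraries with Xist and the mean ± standard deviation beside the points. From Tars to Eprs the means are higher after SD and from Yars to Vars lower, with overlap for Eprs in wild-type mice and the widest separation for Vars and Tars.

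Of the mitochondrial members, Pars2, the proline enzyme (chr4:106651069-106655282), fell most. Controls held 441, 461 and 394 and SD libraries 293, 300 and 329 normalized counts. The groups were clearly separated, at a log2 fold change of -0.49 (SE 0.10, limma adjusted p = 0.00714) or a level that fell by 28.8%. Vars2, the mitochondrial valine enzyme, was at 1331, 1509 and 1363 against 1167, 1185 and 1029. All SD libraries were lower (log2 fold change -0.31, SE 0.08, limma adjusted p = 0.0175). Both valine enzymes were thus among the members that fell. Iars2, the mitochondrial isoleucine enzyme, fell by 0.20 (limma adjusted p = 0.0295) and Mars2 fell by 0.31 (limma adjusted p = 0.0470), so that the isoleucine pair went in opposite directions and the methionine pair in the same one. For Iars2, 24.2% of exon bases overlap genes on the other strand, and for Vars2 8.52%. The strand setting of the authors' counting is not given in the sources used here, so reads in those bases cannot be assigned.

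The other 24 members did not pass in wild-type mice, with log2 fold changes between -0.24 (Cars2, cysteine) and 0.18 (Nars). The cytosolic ones were Nars, Aars (alanine), Gars, Wars, Hars, Kars (lysine), Qars (glutamine), Dars (aspartate), Cars (cysteine), Eprs and both chains of the phenylalanine enzyme, Farsa and Farsb. Hars was at 3555 to 3703 in the controls and 3604 to 3858 after SD (log2 difference 0.03, SE 0.06), and Qars at 2297 to 2527 and 2323 to 2589 (0.03, SE 0.07). Gars spanned 6947 to 7730 in the controls and 5779 to 7266 after SD, a log2 difference of -0.18 with an SE of 0.09 (limma adjusted p = 0.150). The mitochondrial ones, which each charge the amino acid of their cytosolic namesake, were Cars2, Yars2, Fars2, Tars2, Sars2, Ears2 (glutamate), Wars2, Nars2, Hars2, Aars2, Lars2 and Rars2. Rars2 had the highest log2 fold change of these (0.16, SE 0.07, limma adjusted p = 0.146), at 843 to 951 in the controls and 968 to 1019 after SD.

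In AcPb-/- mice 15 members passed. Tars, Nars, Iars, Rars, Sars and Eprs rose, Vars, Lars, Mars and Yars fell, and of the mitochondrial members 0 rose and 5 fell (Pars2, Cars2, Vars2, Iars2 and Fars2). That is 6 of 36 higher (16.7%) and 9 of 36 lower, against 14.1% and 13.3% of the 20574 genes tested, or 22.1% and 19.4% of the 10907 genes at least as abundant as the lowest member. With all libraries thinned to the smallest total, 8 were higher and 7 lower. Groups did not overlap for 12 members that were higher and 12 that were lower, where 21.7% and 20.7% of all genes did so. The like share of genes at least as abundant as the lowest member was not counted. The median log2 fold change was 0.01 for the cytosolic and -0.07 for the mitochondrial members, beside 0.01 for all genes tested.

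Vars was at 2546, 2349 and 2403 in CTL-AcPbKO replicates 03, 04 and 05 and at 1421, 1644 and 1489 in SD-AcPbKO replicates 02, 03 and 04. The separation was wide, with a log2 fold change of -0.68 (SE 0.07, limma adjusted p = 0.000734), and the level fell by 37.7%. Lars was at 2264, 2339 and 2293 against 1668, 1778 and 1735. Both groups were tight, and Lars fell by 0.41 on the log2 scale (SE 0.06, limma adjusted p = 0.00155). Mars fell by 0.25 (limma adjusted p = 0.0206) and Yars fell by 0.17 (limma adjusted p = 0.0484).

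Tars rose from 1274, 1399 and 1419 in the AcPb-/- controls to 2013, 1793 and 1892. No library of one group reached the other (log2 fold change 0.48, SE 0.07, limma adjusted p = 0.00223), an increase of 39.2%. Nars, the most abundant member per length, was at 8896, 9265 and 9415 against 11266, 10704 and 11120. All SD libraries were above the controls, and it rose by 0.26 (SE 0.05, limma adjusted p = 0.00889). Iars was at 3161, 3179 and 3307 against 4054, 3580 and 3850. Its SD libraries spread more than its controls but did not overlap them (log2 fold change 0.25, SE 0.06, limma adjusted p = 0.0183). Rars rose by 0.26 (limma adjusted p = 0.0256), Sars by 0.21 (limma adjusted p = 0.0366) and Eprs by 0.18 (limma adjusted p = 0.0380). Of the 21 that did not pass, Rars2 was nearest, with a log2 difference of 0.20 (SE 0.07, limma adjusted p = 0.0585) and all SD libraries above the controls.

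Pars2 was at 415, 454 and 368 in the AcPb-/- controls and 256, 267 and 273 after SD. The highest SD library was well below the lowest control (log2 fold change -0.63, SE 0.11, limma adjusted p = 0.00392). Cars2, the mitochondrial cysteine enzyme, was at 624, 564 and 530 against 385, 447 and 428. It fell by 0.45 without overlap (SE 0.10, limma adjusted p = 0.0115), and 5.83% of its exon bases overlap Naxd on the other strand. Vars2 was at 1478, 1320 and 1408 against 1110, 1195 and 947. It fell by 0.38 (SE 0.09, limma adjusted p = 0.0187). Iars2 fell by 0.22 (limma adjusted p = 0.0361) and Fars2, the mitochondrial phenylalanine enzyme, fell by 0.25 (limma adjusted p = 0.0436), with 10.7% of the exon bases of Fars2 overlapping Nrn1 and Lyrm4 on the other strand.

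**Figure D3:**
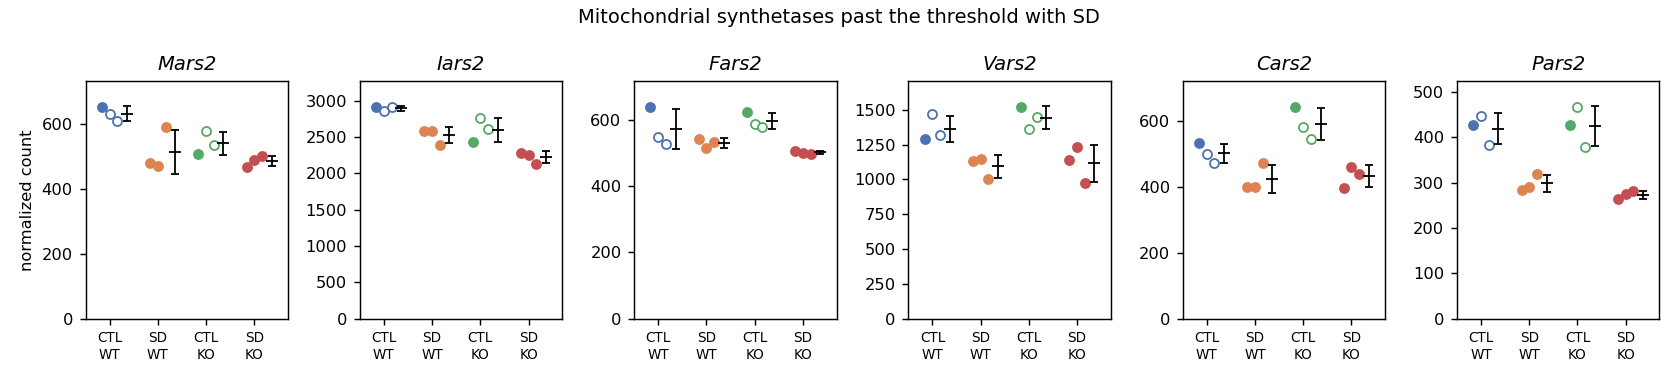
Normalized counts (12 libraries normalized together, axis from 0) of the 6 mitochondrial synthetases past the threshold with SD in at least 1 genotype, by group, with open points for the 4 libraries with Xist and the mean ± standard deviation beside the points. All 6 have lower means after SD in both genotypes, with the widest separation for Pars2.

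The comparisons of SD in wild-type and in AcPb-/- mice share no library. In both, however, the SD libraries were deeper and the libraries with Xist were all controls. Of the members, 11 passed in both and in the same direction, 4 higher and 7 lower, which is 91.7% of the 12 in wild-type mice and 73.3% of the 15 in AcPb-/- mice. The share of all genes that passed in both was not counted, so these shares cannot be read as particular to the synthetases. Mars2 passed in wild-type mice alone, and Eprs, Nars, Cars2 and Fars2 in AcPb-/- mice alone. All 36 members had the same sign in both genotypes (Pearson r = 0.962, Spearman rho = 0.958 over 36 genes that share libraries, given as a description). Whether SD acted differently in the genotypes was tested as an interaction over all 12 libraries, which passed for 0 members and for 0.0% of 20978 genes (limma). At an unadjusted p under 0.05, 0 members and 839 genes were found, and edgeR and DESeq2 called 0 members. The differences ran from -0.21 (Cars2, SE 0.14) to 0.16 (Mars2, SE 0.13), with a median SE of 0.09 on the log2 scale, so differences of that size were not detectable here.

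**Figure D4:**
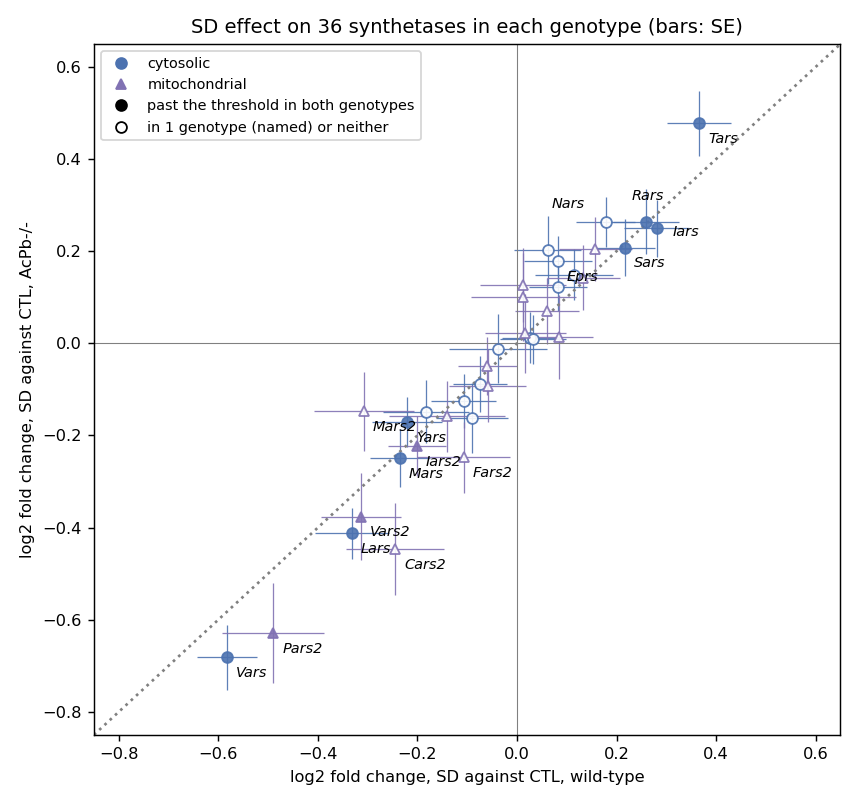
SD effect (log2 fold change ± SE) of each of the 36 synthetases in wild-type mice (x axis) and AcPb-/- mice (y axis), circles for cytosolic and triangles for mitochondrial members, filled where past the threshold in both genotypes. The points lie along the dotted line of equal effects, from Vars (-0.58 and -0.68) to Tars (0.37 and 0.48).

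The members that rose and fell were set beside groupings that the choice of symbols did not use. The lists behind these groupings were chosen with earlier results of these data known. Of the 13 cytosolic members known as ATF4 targets, 3 rose and 4 fell in wild-type mice and 5 rose and 4 fell in AcPb-/- mice, with medians of -0.07 and -0.09. Of genes at least as abundant as the lowest member, 20.7% rose and 16.6% fell in wild-type mice and 22.1% rose and 19.4% fell in AcPb-/- mice. Among the 7 other cytosolic members 1 rose (Rars) and 0 fell in either genotype. Of the 8 members of the multisynthetase complex, 2 rose and 2 fell in wild-type mice and 3 rose and 2 fell in AcPb-/- mice, and of the 12 free ones 2 rose and 2 fell, then 3 and 2. The promoters printed above divide in the same way, as Tars and Iars rose and Yars fell in both genotypes, while Aars (log2 difference -0.07 and -0.09) and Gars (-0.18 and -0.15) did not pass. In each genotype Yars passed in 1 of the 6 fits with 1 library left out. With the term for Xist it did not pass (limma adjusted p = 0.0794 and 0.154). The part of the motif in these values was not tested.

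Leaving out the 4 libraries with Xist leaves 1 control in each genotype. All 12 members in wild-type mice and all 15 in AcPb-/- mice then kept the sign of their log2 fold change. Their groups had not overlapped with all libraries, so this sign could hardly change. In that fit of 8 libraries, where the lone controls are assumed to vary like the SD groups, Vars alone passed in wild-type mice (log2 fold change -0.55, limma adjusted p = 0.0458), and 6 passed in AcPb-/- mice (Vars, Tars, Pars2, Mars, Nars and Fars2). Over all 20768 genes of that fit, 680 and 2080 passed. With a term for Xist in place of leaving them out, 8 of the 12 and 12 of the 15 passed. When any 1 library was left out, Vars, Tars and Pars2 passed each time in wild-type mice, and Vars, Tars, Lars, Nars, Pars2 and Cars2 in AcPb-/- mice. The count fell to 5 or 6 without CTL-WT replicate 02, SD-WT replicate 01 or SD-WT replicate 02, and to between 6 and 8 without CTL-AcPbKO replicate 04 or 05 or SD-AcPbKO replicate 02 or 04.

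The comparison of AcPb-/- with wild-type mice asks how the genotypes differ at a given sleep state. The animals were homozygous offspring of colonies, so a difference between colonies cannot be told apart from one of genotype. Both groups of each comparison held equal numbers of libraries with Xist. Undisturbed, 0 of the 36 members passed in limma (15 at an unadjusted p under 0.05, as were 1730 of the 20273 genes tested), 0 in edgeR and 4 in DESeq2, where 0.0197% of all genes passed in limma. After SD 0 passed in limma (10 at an unadjusted p under 0.05, as were 1265 of the 20621 genes tested), 0 in edgeR and 1 in DESeq2, with 0.0145% of all genes. The values leaned to one side all the same, though the lists were chosen with earlier results of these data known. The 13 cytosolic members known as ATF4 targets were measured in the same libraries and are not separate observations of the genotype. All 13 had lower means in AcPb-/- mice in both comparisons, which share no library, with medians of -0.18 undisturbed and -0.19 after SD. Beside these, 49.8% and 49.4% of all genes tested had a negative log2 fold change, with medians of 0.000634 and 0.00203. Among genes at least as abundant as the lowest member it was 50.98% undisturbed and 53.75% after SD, with medians of -0.00222 and -0.00831. Of the 13, 10 had every AcPb-/- library below every wild-type library in each comparison, and 8 in both. Over all 36 members this held for 14 in each comparison, against 7.04% and 6.01% of all genes or 9.56% and 7.24% of genes at least as abundant as the lowest member. The reverse, every AcPb-/- library above, held for 3 and 2 members, against 7.35% and 5.35% of all genes or 8.55% and 4.91% of the abundant ones. How many of all genes were lower in both comparisons, in mean or without overlap, was not counted. The 7 other cytosolic members had medians of -0.06 and -0.04 and the 16 mitochondrial members 0.00 and -0.03.

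Cars had the largest difference. It was at 1770, 1795 and 1993 in CTL-WT and at 1370, 1424 and 1343 in CTL-AcPbKO. The groups did not overlap, with a log2 difference of -0.42 (SE 0.06, limma adjusted p = 0.116). After SD it was at 3481, 3699 and 4134 in SD-WT and 2857, 2812 and 2926 in SD-AcPbKO, in the scale of that table. This gave -0.39 (SE 0.07, limma adjusted p = 0.204), again without overlap. The next in order undisturbed were Yars (-0.30, SE 0.05), Nars (-0.30, SE 0.05) and Gars (-0.27, SE 0.06), which gave -0.25, -0.22 and -0.24 after SD, none past the threshold (lowest limma adjusted p = 0.191 for Yars and Nars undisturbed). DESeq2 called Cars, Nars, Yars and Gars undisturbed and Cars after SD. Hars went the other way, with 2527 to 2618 in CTL-WT and 2736 to 2943 in CTL-AcPbKO (0.15, SE 0.05, limma adjusted p = 0.479) and 0.13 after SD. Of the 20 cytosolic members, 17 were lower in mean in AcPb-/- mice in both comparisons, and 7 of the 16 mitochondrial ones. The like share of all genes was not counted. Beside these values, the sum of the excitatory neuron markers was higher in CTL-AcPbKO than in CTL-WT without overlap, while of the 6 single markers 3 were higher and 3 lower in mean. The 5 oligodendrocyte markers all had lower means in CTL-AcPbKO, with sums of 48839 to 114876 against 98928 to 124730 in CTL-WT. After SD all 5 microglia markers had lower means in AcPb-/- mice, 2 of them without overlap, with sums of 7383 to 9185 against 9634 to 10478. The part of these markers was not tested.

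**Figure D5:**
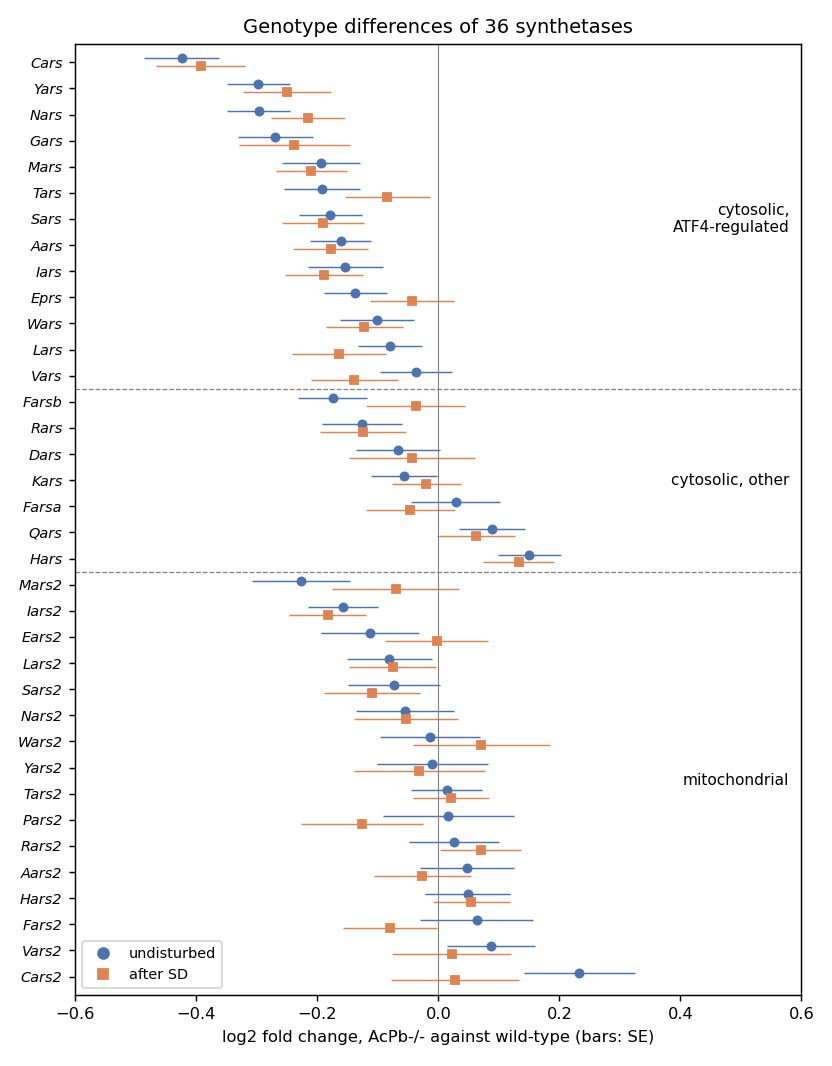
Log2 fold change (± SE) of AcPb-/- against wild-type mice for the 36 synthetases, undisturbed (blue circles) and after SD (orange squares), in 3 blocks. All 13 members known as ATF4 targets lie left of 0 in both comparisons, with Cars lowest (-0.42 and -0.39), and 0 of the 36 passed the threshold.

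Other genes that handle charged tRNA were counted the same way, beside 13.2% of all genes that rose and 12.2% that fell in wild-type mice and 14.1% and 13.3% in AcPb-/- mice. Of the 3 scaffold genes of the multisynthetase complex, Aimp2 rose in wild-type mice (0.26, limma adjusted p = 0.0169) and Aimp1 fell in AcPb-/- mice (-0.40, limma adjusted p = 0.0123). Of 10 further genes for charging and proofreading, 1 rose and 4 fell in wild-type mice and 1 rose and 3 fell in AcPb-/- mice. Gatc and Gatb, both subunits of the mitochondrial amidotransferase that makes glutaminyl-tRNA, went apart, as Gatc rose (0.31 and 0.40) and Gatb fell (-0.55 and -0.47). Of 9 elongation factors, 3 rose and 1 fell in wild-type mice, and 2 rose and 1 fell in AcPb-/- mice. The mitochondrial factors divided here too, since Gfm1, which moves the ribosome along, rose (0.31 and 0.38), and Tsfm, which recycles the factor Tufm, fell (-0.33 and -0.51).

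Of the 4 eIF2 kinases and GCN1, which works with GCN2, Eif2ak1 (HRI) rose (0.24 and 0.31) and Gcn1l1, the gene for GCN1, fell (-0.33 and -0.39). Eif2ak4, the gene for GCN2, did not pass (0.06 and 0.04). Among 20 ATF4-linked genes that are not synthetases, 2 rose and 6 fell in wild-type mice and 1 rose and 7 fell in AcPb-/- mice. Beside these lists, 13.2% of all genes rose and 12.2% fell in wild-type mice, and 14.1% and 13.3% in AcPb-/- mice. Atf4 itself rose by 0.37 in both (limma adjusted p = 0.0180 and 0.00492), and Nupr1, a stress-response gene, rose in wild-type mice (0.76, limma adjusted p = 0.0254) and was at 0.62 without passing in AcPb-/- mice (limma adjusted p = 0.134). Cebpb, a C/EBP factor, fell most (-1.09 and -1.07), followed by Phgdh, the entry enzyme of serine synthesis (-0.51 and -0.71). In the genotype comparisons 0 of these 20 passed, and 17 undisturbed and 18 after SD had lower means in AcPb-/- mice, among them Atf4 (-0.55 in each, limma adjusted p = 0.192 and 0.0548) and Mthfd2, a mitochondrial folate enzyme (-0.86 and -0.84). Of 10 amino acid transporters, 2 rose and 3 fell in wild-type mice and 1 rose and 2 fell in AcPb-/- mice. Slc38a1, a glutamine transporter of neurons, rose (0.25 and 0.33) and Slc7a11, the cystine-glutamate exchanger, fell (-0.68 and -0.81).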

How the data were processed

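The deposited tables hold signal, which the authors made by aligning reads with HISAT2 2.2.1 to mm10, counting them per gene (featureCounts in the submitters' processing notes, HTSeq in the study's methods) and dividing counts by DESeq2 size factors, 2 groups to a table. The kit was TruSeq Stranded mRNA. The strand setting and annotation are not given in the sources used here. The authors' log2 fold changes, their standard errors, Wald scores and p-values were not used. Undoing the size factors gave whole reads (within 0.01) for 100.0% of 732630 values. Of 16 labelled samples, 4 are not analysed here, and the table of SD-AcPbKO against CTL-WT was not tested, since it changes genotype and SD together.

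For each comparison limma 3.58.1 (R 4.3.3) was fitted with a variance trend on log2(normalized count + 1) over genes above 0 in at least 1 library, with 4 residual degrees of freedom. Fold changes on this scale understate those of low genes. P-values were adjusted by Benjamini-Hochberg over all genes, with a threshold of 0.05. The interaction used all 12 libraries normalized together (8 degrees of freedom). Alternatives were edgeR 4.0.16 and DESeq2 1.42.0 on recovered reads, a mean of at least 10, pseudocounts of 0.1 and 10, median centring, all 4 groups in one fit, a term for Xist, thinning to the smallest total (seed 1), leaving out each library in turn, and a block for the replicate number. Leaving out the 4 libraries with Xist was chosen after seeing the data. Fits were tested on simulated data with 200 genes changed, far fewer than passed with SD here. At a log2 size of 0.3 they recovered 4 in the undisturbed genotype comparison and 0 in the others. At 0.6 they recovered 71% to 91%, and 48.5% for the interaction, with 5 to 21 false calls. Replicates differed by more than sampling noise (chi-square per gene 6.6 to 34.2). P-values weigh the difference between groups against the spread between libraries within a group, with the variance partly shared across genes.

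The 36 members and all lists were chosen with earlier results of these data known. All members are named. Those past the threshold are given in full for the 8 lowest adjusted p in a comparison, the rest by fold change and adjusted p, and from other lists the highest and lowest past the threshold with a few others picked after their values were seen. Positions and exons are from GENCODE M21 (GRCm38), promoters from RefSeq (GRCm38.p6). Tables and figures used Python 3.11.15, NumPy 2.4.6, pandas 2.3.3 and matplotlib 3.10.9. A gene of another list and a promoter stretch are not reported here.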

Additional observations from a re-analysis of the deposited data

How the results depend on the processing

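All 27 SD effects past the threshold (12 in wild-type, 15 in AcPb-/- mice) kept their direction under every alternative run. Their groups did not overlap with all libraries, so leaving libraries out could hardly change the direction. Of the 459 values in all, 330 stayed past the threshold and 129 did not. The count of members past it in wild-type mice was 11 to 13 in the fits of all libraries other than the replicate block, and 14 to 17 in AcPb-/- mice apart from 13 with the term for Xist. It was 1 and 6 without the 4 libraries with Xist, where 680 and 2080 genes passed in all, against 2690 higher and 2496 lower, and 2892 higher and 2741 lower, with all libraries. Leaving out 1 library gave 5 to 14 in wild-type and 6 to 14 in AcPb-/- mice, while the count over all genes went from 2699 to 6222 and from 3393 to 5412. In the genotype comparisons 0 members passed, other than 4 undisturbed and 1 after SD in DESeq2 (38 higher and 55 lower, and 42 higher and 55 lower, of all genes, against 4 and 3 in limma) and, undisturbed, 0 to 1 with 1 library left out (Cars, without CTL-AcPbKO replicate 03). The interaction gave 0 in every fit. With the replicate number as a block, 0 members passed in either SD comparison, where 1 residual degree of freedom was left and 0 genes of all passed, and 0 after SD between genotypes and 0 for the interaction. Same-numbered libraries of the SD comparisons deviated with correlations of -0.15 to 0.11. In the genotype comparisons the correlations were 0.21 and 0.22 after SD and -0.47 undisturbed. Same-numbered libraries were taken as different animals, and whether a number marks a shared batch is not given in the labels. No paired analysis was possible because of too few shared numbers in the undisturbed genotype comparison. With 3 libraries a group and SE near 0.06 to 0.10, small differences were not detectable.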
